A study of Homo sapiens with 10 samples.

Results

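NRXN2, NRXN3, NLGN1, LRRC4C, LRRTM3 and LRRTM4 encode adhesion proteins that join the 2 sides of a synapse. These 6 genes were taken by name from 19970 protein-coding genes on chromosomes 1 to 22 and X, and all 6 were found. A peak was assigned to a gene when it overlapped the gene's RefSeq span (GRCh38) or the 2 kb on either side of it. The mark studied was H4R3me2s, histone H4 dimethylated symmetrically at arginine 3, measured by ChIP-seq in SH-SY5Y, a human neuroblastoma line used as a model of neurons. The BDNF+Dox cells (n = 3 libraries) had 10 µM retinoic acid for 6 days and the neurotrophin BDNF at 50 ng/ml for 4 days, with α-synuclein switched on through a Tet-on system by 1 µg/ml doxycycline for 3 days. The BDNF cells (n = 3) had the same retinoic acid and BDNF without doxycycline, and the Naive cells (n = 3) had no treatment. Serum differed too: BDNF+Dox and BDNF cells were kept in 3% FCS with retinoic acid and without FCS with BDNF, whereas the growth medium had 10%. Growth medium with zeocin at 300 µg/ml is given for all samples alike. The labels do not say which groups carry the Tet-on construct, whether the line is 1 clone, or whether replicates are separate cultures. The p-values therefore set a group difference only against reassignments of these same libraries to groups. The spread of the libraries includes technical spread and may not reach beyond these samples. Doxycycline and α-synuclein were given together, and their effects cannot be told apart. Each library was set against the same 1 Input library, which had no antibody.

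Neurexins sit on the presynaptic membrane and bind several kinds of postsynaptic partner across the cleft, among them the neuroligins and the LRRTM proteins with leucine-rich repeats. LRRC4C, also called netrin-G ligand 1, belongs to another leucine-rich repeat family and binds netrin-G1 on axons. H4R3me2s is written mainly by PRMT5 and is best known as a mark of repressed chromatin. Neurexin genes have an upstream promoter for the long alpha form and an internal one for the shorter beta form.

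The libraries kept between 17164402 and 18928589 reads each, and the Input kept 17074000. The number of peaks varied far more than the reads, between 4536 and 12207 per library. Naive replicate 1 held 12207 peaks and BDNF+Dox replicate 1 held 10864, whereas the other 7 libraries held between 4536 and 7914. Counts in a gene are therefore also given per 10000 peaks of the same library. A peak list holds no reads per position, so no counting interval was computed for a single peak.

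Of the 6 genes, 5 held peaks in these libraries and 1, NRXN2, held none. The 172 peaks of the other 5 genes were spread thinly along the gene spans, in which exons and introns were not told apart here, and 1 of them lay within 2 kb of a gene's end. Each of these 5 genes had more peaks per Mb than the median long gene. NRXN3 was the only one of the 6 in which peak counts of BDNF+Dox libraries lay wholly above those of BDNF libraries. No gene passed a test after adjustment.

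Start sites were searched for peaks as well. RefSeq start sites of 3 of the 6 genes were matched in the promoter table, 7 sites in all, and no library peak and no pooled peak of the authors' deposited tables lay within 2 kb of any of them. The windows below are the 250 bases before a start site on the plus strand (RefSeq, GRCh38.p14), with each CG dinucleotide in capitals. They include start sites rich and poor in CG. The share of all start sites without a peak within 2 kb was not computed. The absence of a peak here therefore cannot be read as a trait of these promoters or of their CG content.
NRXN3, most upstream start, chr14:78170123-78170372: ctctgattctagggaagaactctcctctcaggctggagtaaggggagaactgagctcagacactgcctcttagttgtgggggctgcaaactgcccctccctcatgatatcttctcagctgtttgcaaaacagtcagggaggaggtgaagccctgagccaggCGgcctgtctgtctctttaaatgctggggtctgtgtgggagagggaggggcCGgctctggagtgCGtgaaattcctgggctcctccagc
NRXN3, internal start, chr14:79279130-79279379: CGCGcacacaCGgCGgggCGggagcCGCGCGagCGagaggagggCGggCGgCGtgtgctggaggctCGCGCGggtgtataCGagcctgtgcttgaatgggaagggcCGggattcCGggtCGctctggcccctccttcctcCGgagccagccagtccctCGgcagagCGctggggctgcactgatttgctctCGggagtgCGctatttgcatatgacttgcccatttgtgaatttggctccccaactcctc
NLGN1, most upstream start, chr3:173395702-173395951: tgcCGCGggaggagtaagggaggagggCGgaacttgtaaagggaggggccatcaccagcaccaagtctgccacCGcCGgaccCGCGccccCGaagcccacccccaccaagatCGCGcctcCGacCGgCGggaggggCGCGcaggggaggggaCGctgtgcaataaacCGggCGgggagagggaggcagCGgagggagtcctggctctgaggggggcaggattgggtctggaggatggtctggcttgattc
LRRTM3, internal start, chr10:67012016-67012265: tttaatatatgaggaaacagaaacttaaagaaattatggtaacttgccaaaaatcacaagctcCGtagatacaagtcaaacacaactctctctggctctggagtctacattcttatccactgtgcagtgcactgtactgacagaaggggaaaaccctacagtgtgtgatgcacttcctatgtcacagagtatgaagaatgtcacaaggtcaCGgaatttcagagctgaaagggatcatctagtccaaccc
CG was searched as the letters CG, which read the same on both strands. The internal NRXN3 window held 24 CG and the upstream one 3. The NLGN1 window held 19 CG and the LRRTM3 window 2, against a median of 11 over 35116 windows of this length, of which 93.94% held at least 1. From the internal NRXN3 start the nearest library peak was 12.9 kb away, and from the upstream start it was 140 kb away. The NLGN1 start had its nearest library peak at 7.76 kb and the LRRTM3 start at 4.11 kb, both in Naive libraries. NRXN2, LRRC4C and LRRTM4 have no entry in that table.

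NRXN2 and NRXN3 are the presynaptic members. NRXN2 (chr11:64606174-64723197, 117 kb) had 0 peaks in all 3 BDNF+Dox, all 3 BDNF and all 3 Naive libraries, and 0 peaks in each of the 4 pooled lists of the authors' deposited tables. It is also the shortest of the 6 genes. Among protein-coding genes of 100 to 150 kb, 232 of 1313 (17.7%) had no peak in any library, so a gene of this length without peaks is common in these data.

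NRXN3 (chr14:78170373-79868291, 1698 kb) is the longest of the 6 and held 42 library peaks. It had 6, 8 and 5 peaks in BDNF+Dox replicates 1 to 3, 2 in each of the 3 BDNF libraries, and 10, 3 and 4 in Naive replicates 1 to 3. All BDNF+Dox libraries were above all BDNF libraries, and all Naive libraries were too, while BDNF+Dox and Naive libraries overlapped. No 2 of its 42 peaks overlapped, although the strongest one formed a shared region with a peak of Naive replicate 3 when peaks within 200 bp of each other were joined. That strongest peak, at chr14:78988423-78988644 in Naive replicate 1, had a −log10 p of 6.95 and a fold enrichment of 5.29 over Input in the authors' deposited table.

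NLGN1 (chr3:173395952-174294372, 898 kb) encodes a postsynaptic neuroligin of excitatory synapses and held 39 library peaks. It had 3, 5 and 4 peaks in the BDNF+Dox libraries, 2, 3 and 3 in the BDNF libraries, and 8, 3 and 8 in the Naive libraries. Naive replicates 1 and 3 stood above all others, and the 3 groups overlapped. Its strongest peak, at chr3:174166154-174166399 in BDNF+Dox replicate 3, had a −log10 p of 6.55 and a fold of 4.97 in the authors' deposited table.

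LRRTM3 and LRRTM4 encode postsynaptic partners of neurexins. LRRTM3 (chr10:66926036-67101551, 176 kb) had 1, 1 and 0 peaks in the BDNF+Dox libraries, 0, 0 and 2 in the BDNF libraries, and 1, 2 and 2 in the Naive libraries. With 9 peaks in 6 of 9 libraries its counts were too low to order the groups. LRRTM3 lies inside the span of CTNNA3 (chr10:65912523-67763594), the gene of a catenin of cell junctions, so all 9 peaks belong to both genes, and 7 of them also to the long non-coding RNA gene LOC101928961. CTNNA3 as a whole held 64 library peaks, 3.83 per Mb per library.

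LRRTM4 (chr2:76747685-77522376, 775 kb) held 35 library peaks. It had 6, 4 and 2 peaks in the BDNF+Dox libraries, 1, 1 and 7 in the BDNF libraries, and 8, 4 and 2 in the Naive libraries. BDNF replicate 3 was second only to Naive replicate 1, and the 3 groups overlapped. Of these peaks 2 also lay in the antisense gene LRRTM4-AS1. The strongest, at chr2:77119147-77119366 in BDNF+Dox replicate 3, had a −log10 p of 6.66 and a fold of 5.04 in the authors' deposited table.

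LRRC4C (chr11:40114199-41459652, 1345 kb) held the most peaks of the 6, 47 in all. It had 9, 3 and 1 peaks in the BDNF+Dox libraries, 3, 7 and 2 in the BDNF libraries, and 8, 4 and 10 in the Naive libraries. The spread inside the BDNF+Dox group covered nearly the whole range of the other groups. LRRC4C held the only library peak of the 6 genes with a q of 0.05 or less. It lay at chr11:40920219-40920413 in Naive replicate 3, with a −log10 p of 7.48, a fold of 5.43 and a q of 0.0374 in the authors' deposited table.

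**Figure D1:**
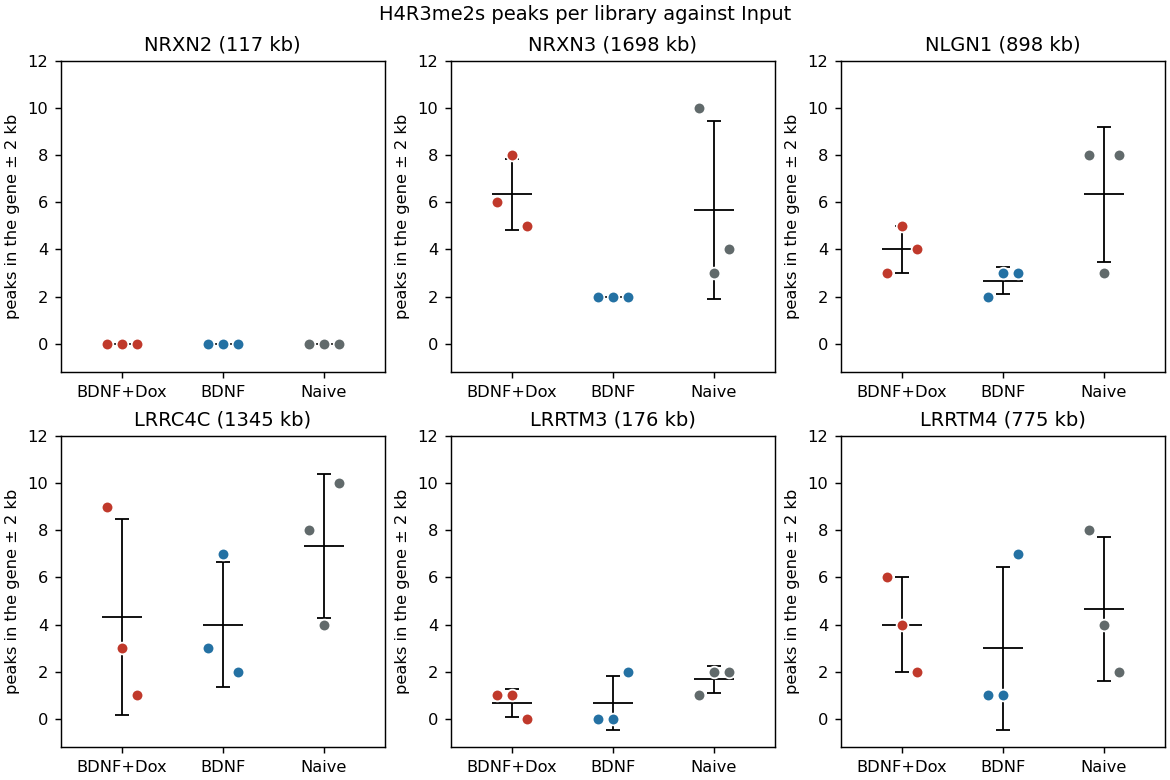
Number of H4R3me2s peaks called against Input in each gene with 2 kb on either side (vertical axis), by library and group (horizontal axis). Points are libraries, long bars are means and whiskers are SD (n = 3 per group). NRXN3 libraries sit at 5 to 8 in BDNF+Dox, at 2 in BDNF and at 3 to 10 in Naive, and NRXN2 is at 0 throughout.

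The comparison of BDNF+Dox with BDNF asks whether the mark moved when α-synuclein was induced in differentiated cells. NRXN3 had 6.33 ± 1.53 peaks per BDNF+Dox library and 2 ± 0 per BDNF library (SD, n = 3 each), a difference of 4.33. For the other 4 genes with peaks the groups overlapped, and the differences were 1.33 in NLGN1, 1 in LRRTM4, 0.333 in LRRC4C and 0 in LRRTM3. The median difference over all 6243 genes tested was 0.333, in the same direction as the larger peak number of BDNF+Dox libraries. All 3 BDNF+Dox counts lay above all 3 BDNF counts in 1 of the 6 genes. Over all genes tested this held for 1.94% (121 of 6243), and over genes of 100 kb or more for 3.42% (96 of 2809). All 3 lay below in 0 of the 6 genes, against 0.24% of all genes tested and 0.427% of those of 100 kb or more.

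For NRXN3 the exact two-sided permutation p was 0.1, the smallest that 3 libraries against 3 can give, and its adjusted p over 6243 genes was 1. The exact permutation p of the remaining genes, over the same 20 splits, was 0.3 in NLGN1, 0.8 in LRRTM4 and 1 in LRRC4C and LRRTM3, each with an adjusted p of 1. Per 10000 peaks of the library, NRXN3 had 5.55, 11.6 and 7.93 peaks in the BDNF+Dox libraries and 3.28, 4.44 and 2.92 in the BDNF libraries. The groups were still apart on this scale, as they were in 1.86% of all genes tested and 3.24% of those of 100 kb or more.

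The NRXN3 separation depended on which peaks were counted. At a −log10 p of 3 or more, NRXN3 had 5, 6 and 2 peaks in the BDNF+Dox libraries and 2, 1 and 2 in the BDNF libraries, so the groups touched at 2 (exact permutation p = 0.3). With the 4536 strongest peaks taken from every library, it had 1, 6 and 2 peaks in BDNF+Dox and 2 in each BDNF library (exact permutation p = 1). At a −log10 p of 5 or more, NRXN3 kept 0, 1 and 0 peaks in BDNF+Dox and 0, 1 and 1 in BDNF, and the difference of means was -0.333. The BDNF+Dox libraries held more peaks genome-wide as well, at 8045 ± 2460 against 5865 ± 1205 in BDNF (SD, n = 3 each). The part of that number in the NRXN3 result was not tested beyond these settings.

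**Figure D2:**
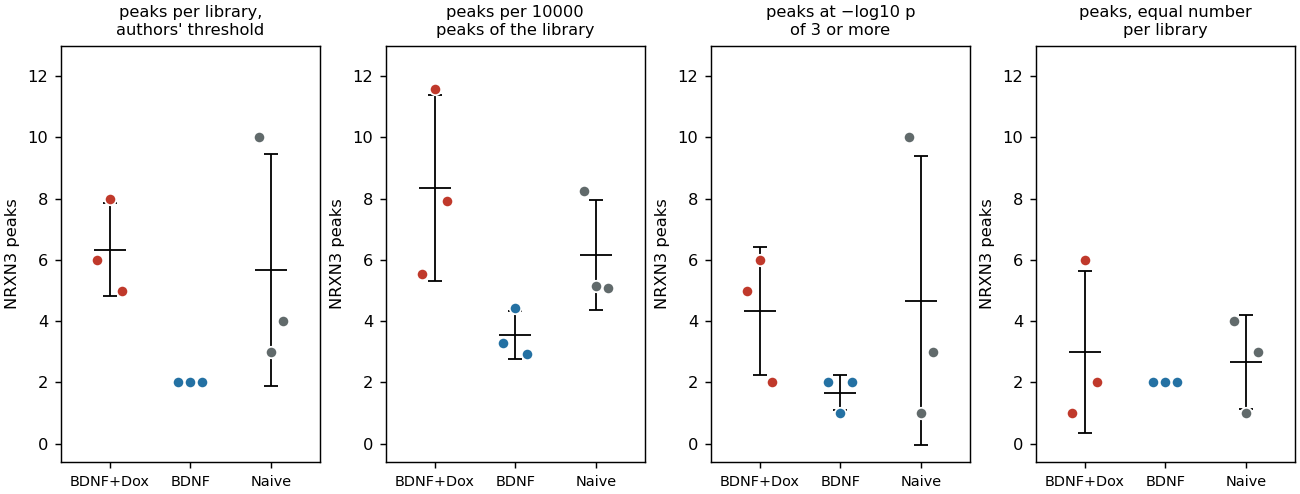
NRXN3 peaks per library (vertical axis) in the 3 groups under 4 ways of counting, from the authors' threshold at the left to an equal number of peaks per library at the right. Points are libraries, bars are means and whiskers are SD (n = 3 per group). The BDNF+Dox and BDNF libraries are apart in the 2 panels at the left and share the value 2 in the 2 panels at the right.

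The comparison of BDNF+Dox with Naive spans differentiation and induction together. NLGN1, LRRC4C, LRRTM3 and LRRTM4 had lower means in BDNF+Dox than in Naive, but in each of them the groups overlapped. NLGN1 averaged 4 ± 1 peaks in BDNF+Dox and 6.33 ± 2.89 in Naive libraries (SD, n = 3 each), and LRRC4C averaged 4.33 ± 4.16 in BDNF+Dox and 7.33 ± 3.06 in Naive. NRXN3 had 6.33 ± 1.53 in BDNF+Dox and 5.67 ± 3.79 in Naive. The groups were apart in 0 of the 6 genes in either direction, against 1.02% of 6540 genes with all BDNF+Dox libraries higher and 0.596% with all lower. Exact two-sided permutation p-values were between 0.3 and 1, with adjusted p of 1 throughout, and 5 of the 6 genes could be tested.

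The comparison of BDNF with Naive spans differentiation without doxycycline, with retinoic acid, BDNF and serum changed together. All 5 genes with peaks had lower means in BDNF than in Naive, the side on which the median of all genes also lay. NRXN3 averaged 2 ± 0 peaks in BDNF and 5.67 ± 3.79 in Naive (SD, n = 3 each), and NLGN1 averaged 2.67 ± 0.577 in BDNF and 6.33 ± 2.89 in Naive. LRRC4C averaged 4 ± 2.65 in BDNF and 7.33 ± 3.06 in Naive. All BDNF counts lay below all Naive counts in 1 of the 6 genes, NRXN3, and in 1.41% (83 of 5907) of all genes tested or 2.74% of those of 100 kb or more. This too depended on which peaks were counted. At a −log10 p of 3 or more NRXN3 had 2, 1 and 2 peaks in BDNF and 10, 1 and 3 in Naive libraries (exact permutation p = 0.5), and with equal peak numbers 2 in each BDNF library and 4, 1 and 3 in Naive libraries (exact permutation p = 0.7), so the groups overlapped. Without Naive replicate 1 its difference of means was -1.5, against -3.67 with it. All BDNF counts lay above all Naive counts in 0 of the 6, against 0.254% of genes tested and 0.444% of the long ones. NRXN3 had an exact two-sided permutation p of 0.1, the smallest possible, and the other 4 genes had p between 0.2 and 0.5, all with an adjusted p of 1 over 5907 genes.

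The BDNF libraries serve in both of these comparisons for NRXN3, so its 2 separations rest on the same 3 values of 2. Over the 3 groups at once, the exact permutation test of the F ratio gave p = 0.129 for NRXN3, 0.114 for NLGN1, 0.436 for LRRC4C, 0.454 for LRRTM3 and 0.768 for LRRTM4, each with an adjusted p of 1 over 7452 genes. An unadjusted p under 0.05 in that test was reached by 0.939% of genes and by 0 of the 6, and 0 genes passed after adjustment. The smallest p that this F test can give is 0.00357, before adjustment.

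Summed over the 6 genes, the BDNF+Dox libraries held 25, 21 and 12 peaks, the BDNF libraries 8, 13 and 16, and the Naive libraries 35, 16 and 26. The sums overlapped between BDNF+Dox and each other group, and BDNF and Naive libraries met at 16. Per 10000 peaks of the library the sums averaged 24.2 ± 5.76 for BDNF+Dox, 21.8 ± 8.0 for BDNF and 29.8 ± 2.98 for the Naive group (SD, n = 3 each). On this scale the values of all 3 groups overlapped, and no test was run on the sums.

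Set against gene length, the 5 genes with peaks were not poor in H4R3me2s peaks. LRRTM3 had 5.57 peaks per Mb per library, LRRTM4 4.99, NLGN1 4.8, LRRC4C 3.87 and NRXN3 2.74. The median over 3351 protein-coding genes of 100 kb or more was 2.12, with quartiles of 0.997 and 3.51, and the median over the 6 genes, NRXN2 included, was 4.34. Of those long genes 94.4% had a lower density than LRRTM3, 90.7% than LRRTM4, 89.3% than NLGN1, 79.6% than LRRC4C and 61.6% than NRXN3. LRRTM3 is short and its place rests on 9 peaks. Genes of 500 kb or more had a median of 2.9, which NRXN3 did not reach.

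By group, the densities did not put the genes in 1 fixed order. In BDNF+Dox libraries LRRTM4 was highest at 5.14 ± 2.57 peaks per Mb, followed by NLGN1 at 4.43 ± 1.11, NRXN3 at 3.72 ± 0.898, LRRTM3 at 3.71 ± 3.22 and LRRC4C at 3.21 ± 3.09 (SD, n = 3). In BDNF libraries LRRTM4 had 3.85 ± 4.45, LRRTM3 3.71 ± 6.43, LRRC4C 2.96 ± 1.96, NLGN1 2.96 ± 0.64 and NRXN3 1.18 ± 0. In Naive libraries LRRTM3 had 9.28 ± 3.22, NLGN1 7.02 ± 3.2, LRRTM4 5.99 ± 3.92, LRRC4C 5.43 ± 2.26 and NRXN3 3.33 ± 2.23. Neighbours in each order differed by less than their SD, except that NLGN1 and NRXN3 in BDNF libraries differed by more than either SD.

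**Figure D3:**
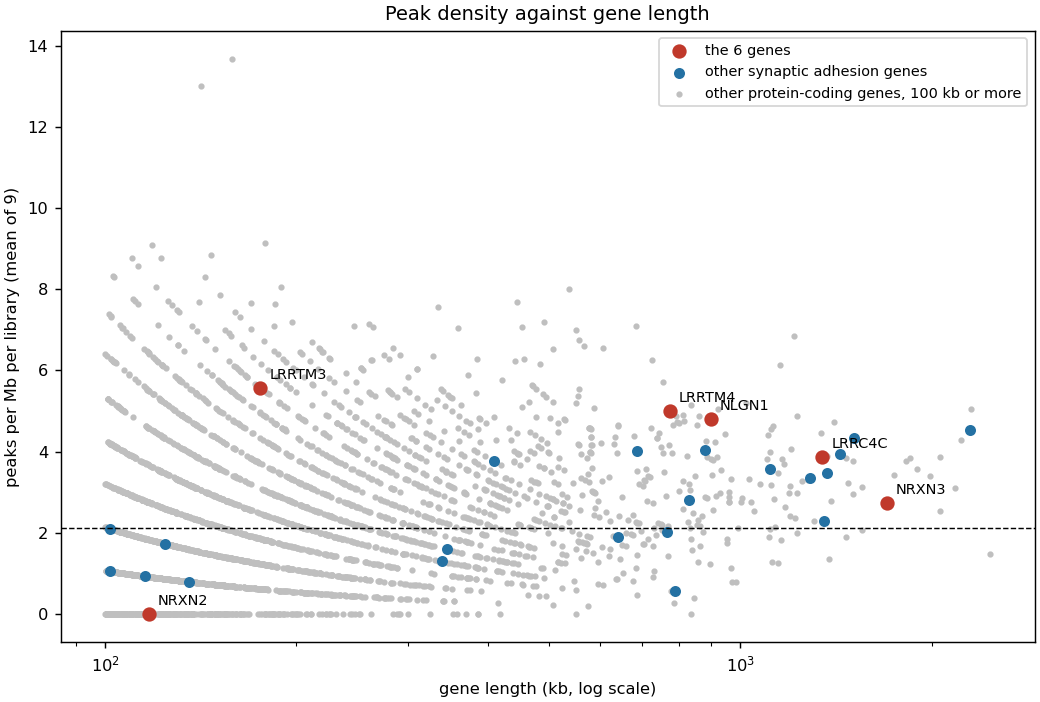
H4R3me2s peaks per Mb per library, as the mean of 9 libraries (vertical axis), against gene length in kb on a log scale (horizontal axis). Red points are the 6 genes, blue points the other synaptic adhesion genes of 100 kb or more, grey points all other protein-coding genes of that length, and the dashed line their median of 2.12. NLGN1, LRRTM3, LRRTM4 and LRRC4C lie above the upper quartile of 3.51, NRXN3 lies at 2.74 and NRXN2 at 0.

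Peaks were scattered along the genes. Of the 172 library peaks, 96 lay nearer the lower-coordinate end of the gene, and 1 (0.581%) lay within 2 kb of an end, where 0.954% of the length searched lies. In genes of 100 kb or more those values were 2.16% of peaks and 3.07% of length. That peak, at chr3:174294135-174294342 in Naive replicate 1, was 0.134 kb from the upper-coordinate end of NLGN1. The closest peak to an end was 2.82 kb away in LRRTM3, 3.67 kb in NRXN3, 6.01 kb in LRRTM4 and 63.5 kb in LRRC4C. The median gap between neighbouring peaks, all libraries together, was 27.3 kb in NRXN3, 19.4 kb in LRRC4C, 15.3 kb in NLGN1, 14 kb in LRRTM4 and 13.2 kb in LRRTM3. The widest stretch without a peak, 146 kb, was in NRXN3 between 78382923 and 78528460, and it holds the start site at 78403719.

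Few places in these genes carried a peak in more than 1 library. The 172 peaks merged into 169 regions, of which 3 (1.78%) held peaks of 2 libraries and 0 held peaks of 3 or more. Over the genome 2.37% of 65632 regions recurred, and 90 held 3 or more libraries. In NLGN1 the recurring region was chr3:173428058-173428235, found in Naive replicates 1 and 3. LRRC4C had chr11:41258476-41258859, also in Naive replicates 1 and 3, and chr11:40738628-40738929, in BDNF replicate 1 and Naive replicate 2. No region held overlapping peaks of several BDNF+Dox libraries. With peaks within 200 bp joined, 8 regions recurred, and no share over the genome was computed for this setting. Of the 8, 4 held 2 Naive libraries and 0 held 2 BDNF libraries. A further 2, chr3:173623966-173624489 and chr3:174166154-174166622 in NLGN1, each held 2 BDNF+Dox libraries. With overlapping peaks alone, leaving out Naive replicate 1, or Naive replicate 3, left 1 recurring region.

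**Figure D4:**
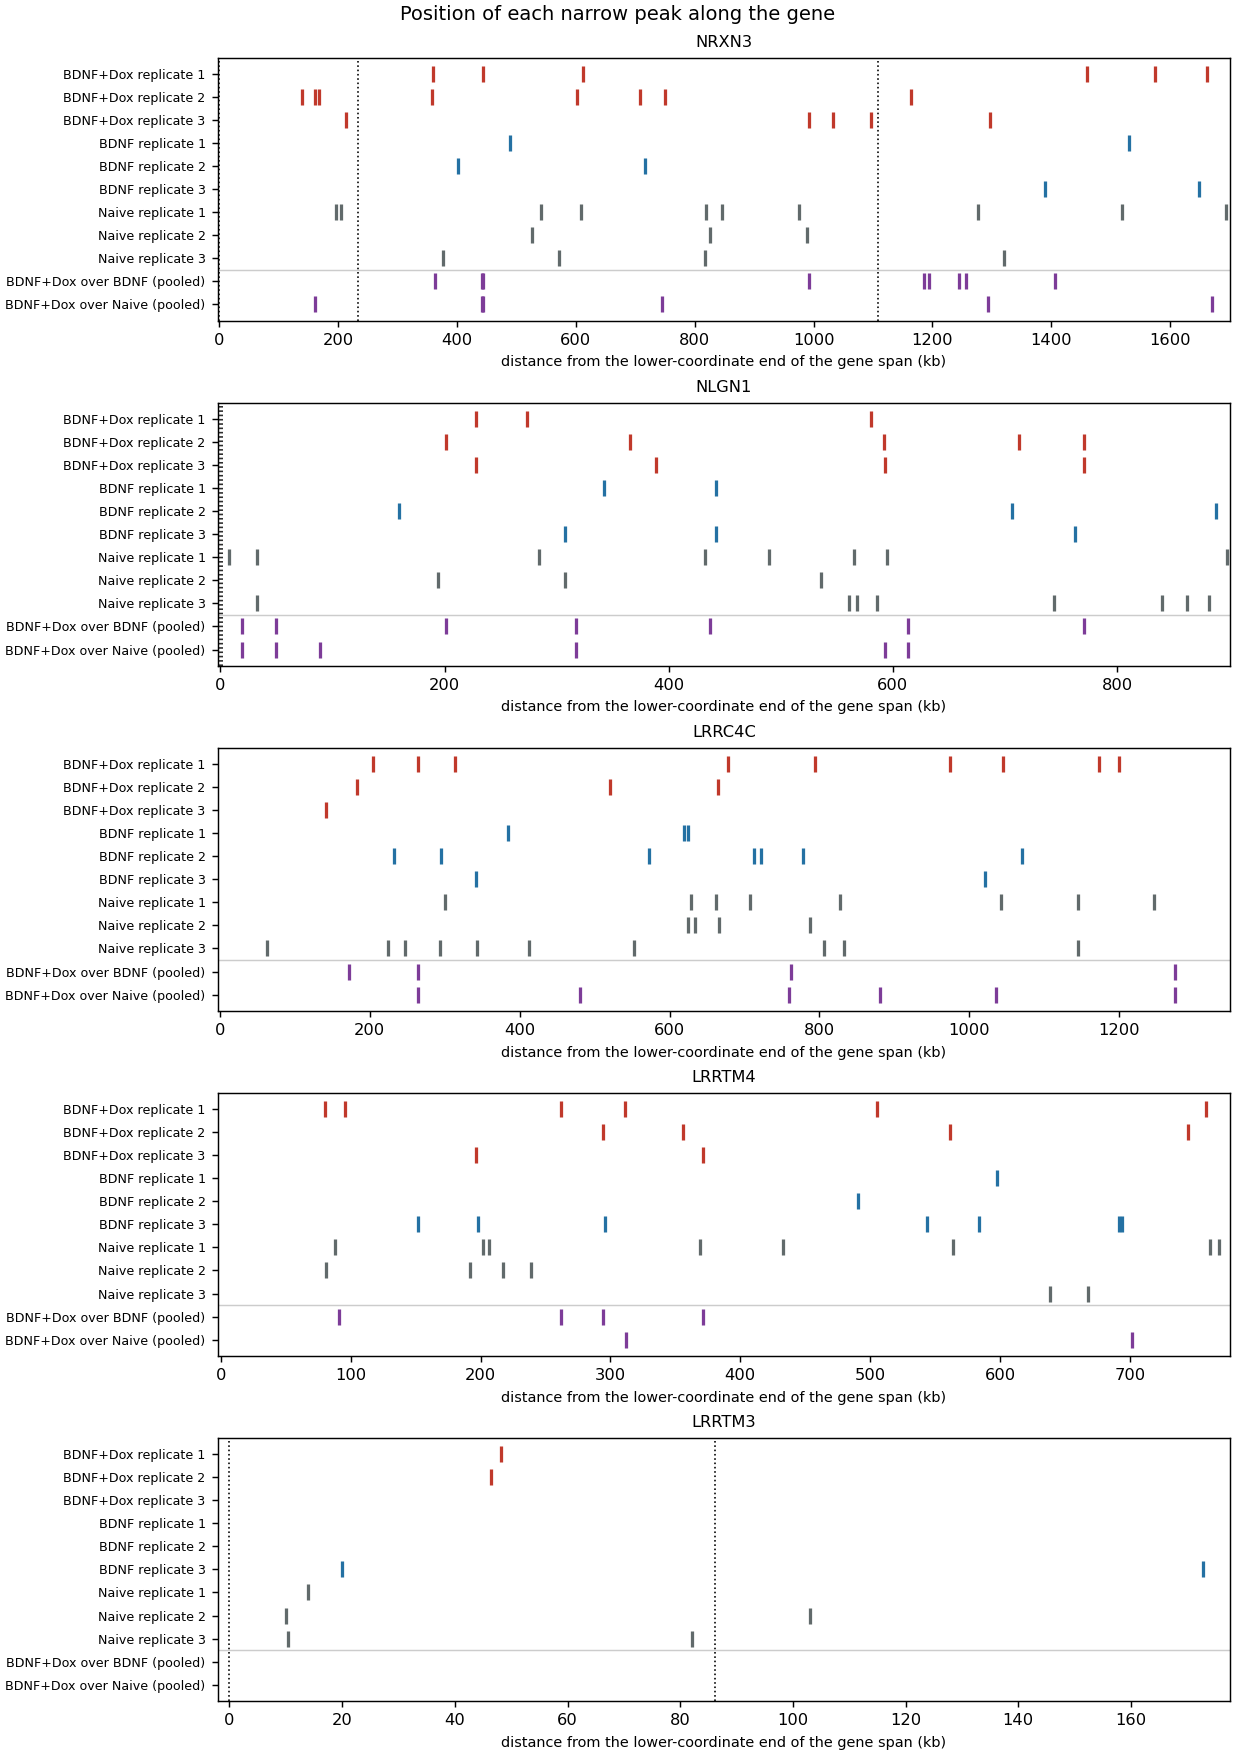
Position of each narrow peak in the 5 genes with peaks, as distance in kb from the lower-coordinate end of the gene (horizontal axis), with 1 row per library and 1 per pooled list (vertical axis). Ticks mark peaks and dotted lines the matched RefSeq start sites. No 2 of the 42 NRXN3 library peaks overlap, and no tick lies within 2 kb of a dotted line.

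The peaks were of ordinary height. Their lengths lay between 151 and 362 bp, and their median fold over Input was 3.47 in the authors' deposited tables, equal to that of all library peaks. A −log10 p of 5 or more was reached by 16 of 172 peaks (9.3%), against 10.5% of all library peaks, in the authors' deposited tables.

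The authors also called BDNF+Dox over BDNF and over Naive from libraries merged by group, which shows where merged signal was higher in BDNF+Dox and carries no spread between replicates. Both calls use the same BDNF+Dox reads. The authors' deposited table of narrow peaks over BDNF held 24 in the 6 genes, namely 9 in NRXN3, 7 in NLGN1, 4 in LRRC4C, 4 in LRRTM4 and 0 in LRRTM3 and NRXN2. The authors' deposited table over Naive held 20, namely 6 in NRXN3, 6 in NLGN1, 6 in LRRC4C, 2 in LRRTM4 and 0 in LRRTM3 and NRXN2. A peak in each of these authors' deposited tables was found in 4 of the 6 genes, beside 14.7% of all protein-coding genes over BDNF and 13.1% over Naive. Among genes of 100 kb or more, the share with a peak in the authors' deposited tables was 51.4% over BDNF and 44.0% over Naive.

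Per Mb, the authors' deposited table of narrow peaks over BDNF held 4.77 in the 6 genes together and 3.95 in genes of 100 kb or more, and that over Naive held 3.97 and 3.16. By gene, NLGN1 was highest, at 7.76 per Mb over BDNF and 6.65 over Naive in the authors' deposited tables. NRXN3 had 5.29 over BDNF and 3.53 over Naive in the authors' deposited tables. LRRTM4 had 5.14 over BDNF and 2.57 over Naive, and LRRC4C 2.96 and 4.45, in the authors' deposited tables. NLGN1, densest in both narrow lists, had library counts that overlapped between all groups.

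At a q of 0.05 or less, 0 of the 6 genes had a narrow peak in the authors' deposited tables, beside 0.12% of protein-coding genes over BDNF and 0.19% over Naive. In the authors' deposited table over BDNF, 14 of the 24 peaks had a q of 1, beside 68.5% of the whole list, and 5 reached a −log10 p of 5 or more, beside 11.8% of the list. In the authors' deposited table over Naive, 18 of the 20 had a q of 1, beside 82.8% of the list, and 1 reached a −log10 p of 5 or more, beside 11.9% of the list. Their median folds in the authors' deposited tables were 2.98 over BDNF and 2.78 over Naive, beside 2.77 and 2.78 for the whole lists. The folds of these peaks lay close to those of their whole lists.

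The peak with the smallest q over BDNF was in LRRTM4, at chr2:77119208-77119372, with a fold of 3.57 and a q of 0.137 in the authors' deposited table. It overlaps the strongest library peak of that gene, in BDNF+Dox replicate 3. The peak of NLGN1 at chr3:173597103-173597289 had a fold of 3.47 and a q of 0.199 in the authors' deposited table. In LRRC4C the peak at chr11:40875545-40875745 had a fold of 3.69 and a q of 0.221 in the authors' deposited table, and overlapped no library peak. NRXN3 had its leading peak at chr14:79576325-79576487, with a fold of 3.46 and a q of 0.486 in the authors' deposited table, again over no library peak.

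Over Naive, NLGN1 led with the peak at chr3:173988764-173988939, with a fold of 3.18 and a q of 0.564 in the authors' deposited table. LRRC4C followed with chr11:41149779-41149968, a fold of 3.19 and a q of 0.827 in the authors' deposited table. All NRXN3 and LRRTM4 peaks over Naive had a q of 1 in the authors' deposited table, the largest folds being 2.88 at chr14:79840147-79840309 and 2.69 at chr2:77449381-77449543.

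Pooled peaks and library peaks mostly lay in different places. Of the 24 peaks over BDNF in the authors' deposited table, 8 lay over a peak found in 1 BDNF+Dox library and 0 over peaks found in several, and 17.9% of the whole list overlapped a BDNF+Dox library peak. Of the 20 over Naive in the authors' deposited table, 5 lay over a peak found in 1 BDNF+Dox library, beside 18.3% of the list. None of these narrow pooled peaks lay over a BDNF or Naive library peak. For the group used as control the call itself disfavours such places, and the share of the whole lists was not computed.

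**Figure D5:**
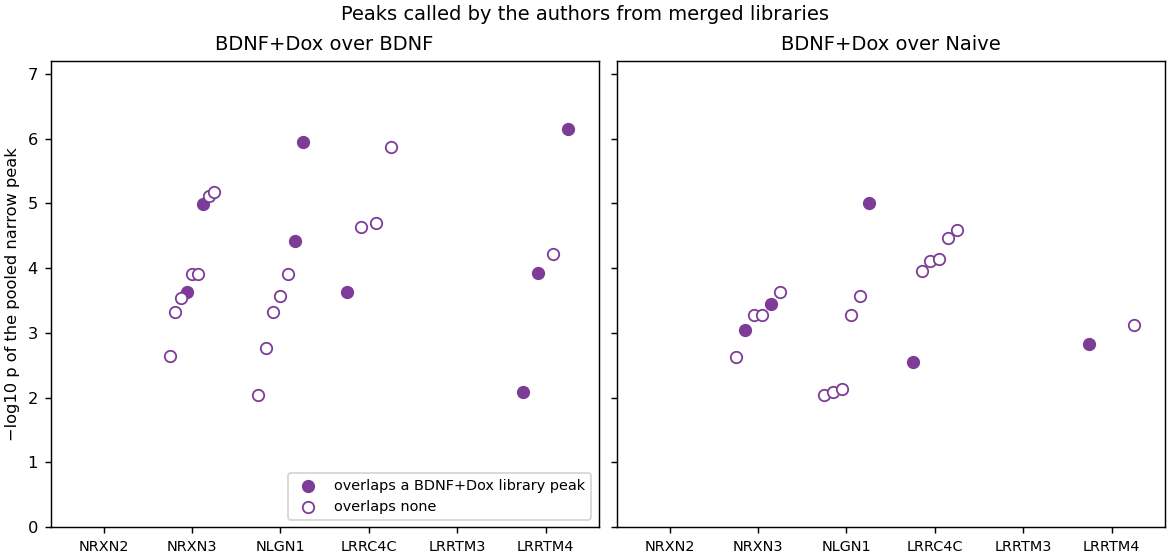
−log10 p of each narrow peak called by the authors from merged libraries (vertical axis) in the 6 genes (horizontal axis), over BDNF at the left and over Naive at the right. Filled points overlap a BDNF+Dox library peak and open points overlap none, and points of a gene are ordered by height. Over BDNF 8 of 24 are filled and over Naive 5 of 20, and NRXN2 and LRRTM3 have no point.

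Broad calls, which join weaker neighbouring signal, gave more peaks in the same genes. The authors' deposited table of broad peaks over BDNF held 51, namely 18 in NRXN3, 11 in LRRC4C, 11 in LRRTM4, 9 in NLGN1, 2 in LRRTM3 and 0 in NRXN2. The authors' deposited table over Naive held 50, namely 18 in NRXN3, 14 in NLGN1, 11 in LRRC4C, 6 in LRRTM4, 1 in LRRTM3 and 0 in NRXN2. A broad peak was present in 5 of the 6 genes in either list, beside 25.5% of all protein-coding genes over BDNF and 23.7% over Naive in the authors' deposited tables. For genes of 100 kb or more that share was 74.2% over BDNF and 70.6% over Naive in the authors' deposited tables. Per Mb the 6 genes held 10.1 broad peaks over BDNF and 9.93 over Naive, beside 10.1 and 8.18 in long genes, in the authors' deposited tables. By gene, LRRTM4 had 14.1 broad peaks per Mb over BDNF and 7.71 over Naive, and NLGN1 9.97 and 15.5, so the order differed between the authors' deposited tables. A q of 0.05 or less was given to 0 of the 51 and 0 of the 50 broad peaks in the authors' deposited tables.

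Other synaptic adhesion genes, a list of 42 that includes further neuroligins, LRRTMs and netrin-G ligands, were counted in the same way. Of the 42, 25 had a library peak, beside 7452 of 19970 protein-coding genes. Among the 3351 genes of 100 kb or more, 334 had no library peak. The 21 of the 42 with that length had a median of 2.29 peaks per Mb per library, beside 2.12 over all genes of that length. Among those with the most library peaks were PTPRD with 94, MAGI2 with 51 and IL1RAPL1 with 43. PTPRD is a presynaptic receptor phosphatase, MAGI2 a scaffold protein and IL1RAPL1 a postsynaptic partner of PTPRD. Among the closest relatives of the 6 genes, NLGN2, LRRTM1, LRRTM2, LRRC4 and LRRC4B, each under 100 kb and named after their values were seen, had 0 library peaks.

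IL1RAPL1 had 6, 4 and 3 peaks in BDNF+Dox libraries, 4, 1 and 4 in BDNF libraries and 7 in each Naive library, so both other groups lay below Naive. It was the only 1 of the 42 genes with either separation. All BDNF+Dox counts lay below all Naive counts in 0.596% of all genes tested. All BDNF counts did so in 1.41% of all genes tested and 2.74% of those of 100 kb or more. A narrow pooled peak was present in 15 of the 42 genes over BDNF and in 14 over Naive in the authors' deposited tables, beside the shares of 14.7% and 13.1% of all genes and 51.4% and 44.0% of genes of 100 kb or more, which 21 of the 42 are, with 0 genes at a q of 0.05 or less.

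By the sum over the 9 libraries of absolute differences in peaks per Mb, among 3350 other genes of 100 kb or more, the gene most like NRXN3 was NPAS3, a neuronal transcription factor gene, at 5.15 against a median of 25.6. The gene most like NLGN1 was PTPRD, at 7.19 against a median of 37.8. LRRC4C was closest to CTNNA3, at 9.23 against 33.4, and LRRTM4 to TMEM135, at 12.4 against 39.7. The smallest of 3350 distances lies below their median by construction, so these values do not show that the genes are alike. NPAS3 had between 1 and 5 peaks per library and TMEM135 between 0 and 3.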

How the data were processed

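H4R3me2s ChIP-seq peak lists of 9 SH-SY5Y libraries, each called against 1 Input, and 4 lists from merged libraries were used as deposited. Per the submitters' processing notes, cutadapt 1.1, Trimmomatic 0.32, Bowtie and MACS2 2.2.7.1 were used with GRCh38. Per the file headers, peaks were called at p 0.01 (broad cutoff 0.01) with 1 read kept per position and the larger dataset scaled to the smaller. The deposited values, all made by the authors with MACS2, are each peak's pileup signal, its fold enrichment (a ratio to local background) and its p-value and q-value as −log10. Per the file headers q-values would not be calculated, but the deposited column holds values, used as given. Folds and q-values are the authors' and were read only within their own list.

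Peaks were counted per library in each gene span with 2 kb on either side (Python 3.11.15, pandas 2.3.3, numpy 2.4.6). Gene spans came from a RefSeq table without exons. Means of 3 libraries were compared by exact two-sided permutation tests, and the 3 groups by an exact F test over 1680 assignments, with Benjamini-Hochberg adjustment over all protein-coding genes with a peak in the compared libraries, since the members and lists were chosen with earlier results of these data known. Library peaks sharing at least 1 bp were joined to form regions. The procedure was tested on simulated data. The text names the 6 genes with their recurring regions and, per pooled list, their peak with the smallest q (ties by fold), the genes overlapping them, the 4 other adhesion genes with the most library peaks (some results of this rule are not reported here), and the gene closest in pattern to each member with 10 or more peaks. Groups and replicate numbers came from the labels. Alternatives were stricter −log10 p limits of 3 and 5, equal peak numbers per library, scaling per 10000 peaks, other windows, a replicate block and leaving out each library.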

Additional observations from a re-analysis of the deposited data

How the results depend on the processing

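Of 307 recomputed values, 258 were kept, 35 moved and 14 changed sign, and the cause was not tested. Kept means the same direction for a gene's difference, within the SD for sums and within 1.5 times for counts. The exact tests of these differences cannot give a p under 0.1, so none could cross the threshold of 0.05. The NRXN2 differences, at 0 under every setting, are among the 258 by construction, so the 258 is no measure of stability. Sizes were less stable: of 192 differences among the 258, 56 differed from the reported value by over 1.5 times, scaled values included, and 35 of these were smaller. NRXN3 in BDNF+Dox minus BDNF was 1 with equal peak numbers, against 4.33. All values with the gene span alone, with peak midpoints, or with regions merged at an overlap of 50% of the shorter peak were among the 258. Differences are in peaks per library. At a −log10 p of 5 or more, BDNF+Dox minus BDNF was -0.333 in NRXN3 and 1 summed over the genes. BDNF+Dox minus Naive was -0.333 in NRXN3, 0.333 in NLGN1 and 0 in LRRC4C and LRRTM4, and BDNF minus Naive was 0 in NRXN3 and NLGN1 and -1.33 summed. At 3 or more, BDNF+Dox minus Naive was -0.333 in NRXN3. With equal peak numbers, BDNF+Dox minus BDNF was 0 in NLGN1, -1.33 in LRRC4C and 0.333 summed, BDNF+Dox minus Naive was 0 in LRRTM4, and BDNF minus Naive was -4 summed. Per 10000 peaks, BDNF+Dox minus BDNF was -3.04 in LRRC4C and -0.182 in LRRTM3, and BDNF minus Naive was -8.02 summed. In the authors' deposited tables, narrow peaks over BDNF numbered 5 at a −log10 p of 5 or more and those over Naive 1. Broad peaks numbered 11 over BDNF and 4 over Naive at 3 or more, and 0 at 5 or more. All 4 lists held 0 at a q of 0.05 or less. Merging within 200 bp gave 8 recurring regions in place of 3.

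Leaving out each library in turn gave these ranges. BDNF+Dox minus BDNF was 3.5 to 5 in NRXN3, 0.833 to 1.83 in NLGN1, -2 to 2 in LRRC4C, -0.333 to 0.667 in LRRTM3, 0 to 3 in LRRTM4 and 4.17 to 10.7 summed. BDNF+Dox minus Naive was -0.667 to 2.83 in NRXN3, -4 to -1.5 in NLGN1, -5.33 to -1.33 in LRRC4C, -1.33 to -0.667 in LRRTM3, -2 to 1 in LRRTM4 and -11.2 to -1.67 summed. BDNF minus Naive was -5 to -1.5 in NRXN3, -5.33 to -2.83 in NLGN1, -5 to -2 in LRRC4C, -1.67 to -0.667 in LRRTM3, -3.67 to 0 in LRRTM4 and -18.2 to -8.67 summed. NRXN2 stayed at 0, and recurring regions numbered 1 to 3.

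The labels do not say whether replicate numbers pair the samples. Same-numbered libraries correlated between -0.0645 and 0.15 in their deviations, and libraries of different number between -0.166 and 0.118. Of 9 comparisons, 4 had the best correlation with the own number. Peak counts this sparse cannot show whether the numbers mark a shared culture or day. With the replicate block, NRXN3 in BDNF+Dox minus BDNF was 4.33, with an exact sign-flip permutation p of 0.25, the smallest that 3 pairs allow. A call under 0.05 was possible neither with the block nor without it, so the calls cannot show whether pairing matters. Peak lists without reads per position limit what can be said of any 1 peak.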
